A study of Homo sapiens with 6 samples.

Results

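The genes described here are 9 human members of the CAP superfamily, chosen by gene name: CRISP1, CRISP2, CRISP3, PI15, PI16, CRISPLD1, CRISPLD2, GLIPR1 and GLIPR2. They are 9 of the 44628 gene symbols measured, and each has 1 entry in the deposited tables. The group was selected on a measured value, since CRISP3 was seen to fall and PI15 to rise strongly in the VCaP-CR library; every value of the VCaP pair below is therefore a description. RNA was sequenced from 6 human prostate cancer cell lines, 1 library each. Castration-sensitive LNCaP and LAPC4 grew in RPMI and castration-sensitive VCaP in DMEM, each with 10% fetal bovine serum. Their castration-resistant counterparts, LNCaP-abl, VCaP-CR and LAPC4-CR, all grew in RPMI with 10% charcoal-stripped serum, which is depleted of steroids, and the supplement B27. Medium and state thus differed together in every pair and cannot be told apart. Each resistant line is 1 line, and no label names separate cultures, so a p-value across the 3 pairs measures the spread between these 3 cell lines.

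CAP proteins share a cysteine-rich domain named after the cysteine-rich secretory proteins, antigen 5 and pathogenesis-related 1. The CRISPs proper are made mainly in the male reproductive tract and add a cysteine-rich tail to that domain. CRISP3 is secreted into seminal plasma by the prostate and is known for its high level in many prostate cancers, including those that carry the TMPRSS2-ERG fusion, which VCaP has. PI15 and PI16 were named as protease inhibitors, CRISPLD1 and CRISPLD2 carry LCCL domains behind the CAP domain, and GLIPR1 has been studied as a p53 target in prostate cells. GLIPR2 is the exception to the secreted pattern, because it sits on the cytosolic face of the Golgi membrane.

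Total counts ran from 8661337 to 22433655 per library. Levels are given as scaled FPKM, counts divided by gene length and library total and then by a factor per library that lay between 0.863 and 1.082. A gene was tested where its level averaged 1 scaled FPKM or more across the libraries. The luminal keratins KRT8 and KRT18 were at 13.3 to 95.9 and 17.6 to 75.8 scaled FPKM in the 6 libraries. Not every luminal marker was that high in every line: KLK3 and KLK2 were at 0.668 and 0.666 in LNCaP-abl, and TMPRSS2 was at 0.655 in LAPC4-CR. Of 36 markers of stroma, myeloid cells, lymphocytes, endothelium, testis and epididymis, 34 did not pass this filter. The median level of those 34 lay between 0.194 in VCaP-CR and 0.377 in LNCaP, and it serves below as the level at which a gene of another cell type was read in these libraries. Of the members, CRISP2, CRISP3, PI15, CRISPLD1 and GLIPR2 passed the filter and 4 did not. CRISP2 passed narrowly with a mean of 1.00, through its levels in VCaP (3.45) and LAPC4 (1.64), and CRISPLD2 missed narrowly with 0.925. PI15 and CRISPLD1 passed only through VCaP-CR, without which their means were 0.291 and 0.586.

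CRISP3 and CRISP2 are neighbours on chromosome 6, and their RNA was lower in the resistant library of the VCaP and the LAPC4 pairs. In the deposited tables, whose build is hg18 per the submitters' processing notes, CRISP2 (ENSG00000124490) spans chr6:49768032-49789258, CRISP3 (ENSG00000096006) chr6:49803056-49820109 and CRISP1 (ENSG00000124812) chr6:49909929-49952768. The gap between CRISP2 and CRISP3 is 13.8 kb and that between CRISP3 and CRISP1 is 89.8 kb. To set the start regions of this pair of neighbours side by side, the 250 bases before each annotated start were taken from RefSeq (GRCh38.p14, minus strand, chr6:49713544-49713793 for CRISP2 and chr6:49744389-49744638 for CRISP3). They are written 5′ to 3′ with every CG dinucleotide in capitals.
CRISP2: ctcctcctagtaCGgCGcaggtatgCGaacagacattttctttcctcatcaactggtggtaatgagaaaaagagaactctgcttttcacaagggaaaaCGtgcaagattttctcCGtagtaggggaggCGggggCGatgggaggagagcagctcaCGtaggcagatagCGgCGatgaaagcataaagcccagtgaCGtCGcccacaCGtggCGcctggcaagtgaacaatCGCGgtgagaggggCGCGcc
CRISP3: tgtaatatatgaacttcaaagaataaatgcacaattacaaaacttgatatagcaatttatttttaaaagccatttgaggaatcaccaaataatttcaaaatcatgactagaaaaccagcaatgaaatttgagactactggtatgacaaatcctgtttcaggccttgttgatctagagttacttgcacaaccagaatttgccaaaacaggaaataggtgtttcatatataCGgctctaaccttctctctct
The CRISP2 window held 18 CG dinucleotides and 55.2% G or C, whereas the CRISP3 window held 1 and 32.4%. Over all 35116 windows of this length the medians were 11 CG dinucleotides and 58.0% G or C, and 6.06% of the windows had fewer CG dinucleotides than that of CRISP3. Neither window held TATAAA, the ETS core CCGGAA or CCAAT on either strand. Those letters occurred in 10.7%, 14.5% and 32.0% of all windows. RefSeq windows were found for 6 of the 9 members, and the others that were matched are CRISP1, PI16, CRISPLD2 and GLIPR2. Both GLIPR2 windows (30 and 33 CG dinucleotides) and that of CRISPLD2 (27) were rich in CG, while PI16 held 3 and the windows of CRISP1 held 1 and 4. Both windows of CRISP1 held CCAAT, and 1 window of GLIPR2 held CCGGAA.

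CRISP3 was the most abundant member in 3 of the 6 libraries and the one with the widest range. Its level was 506 scaled FPKM in VCaP (11337 counts), 368 in LAPC4 (10968 counts), 18.8 in VCaP-CR (684 counts), 9.59 in LAPC4-CR (522 counts), 1.57 in LNCaP (33 counts) and 0.580 in LNCaP-abl (15 counts). VCaP and LAPC4 were high, their resistant counterparts intermediate and the LNCaP pair low, and the exact 95% Poisson intervals of neighbours in that order did not overlap. These intervals, here and below, cover counting error only. In such bulk RNA, fewer cells with a transcript and less of it per cell cannot be told apart. In VCaP and LAPC4, CRISP3 ranked 46 and 47 of 19937 protein-coding genes by this per-length level. It made up 98.2% of the summed level of the 9 members in VCaP and 97.8% in LAPC4, but 22.1% in VCaP-CR, where PI15 took 46.4% and CRISPLD1 28.0%.

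**Figure D1:**
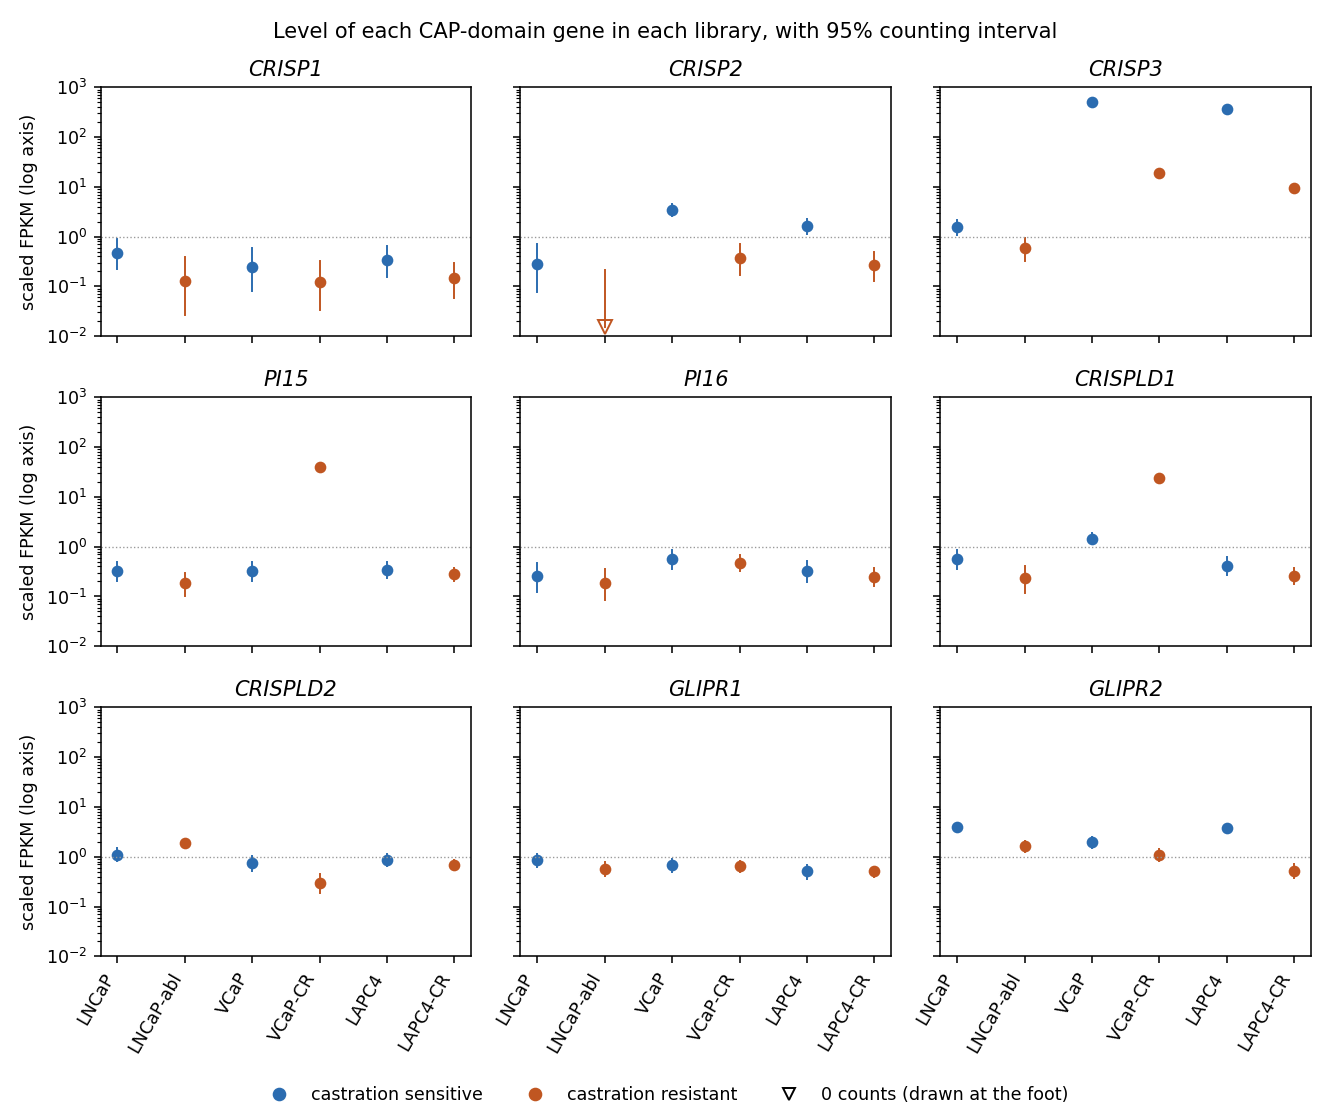
Level of each of the 9 CAP-domain genes in the 6 libraries (points, scaled FPKM on a log axis, 1 library each), with bars for the exact 95% counting interval and a dotted line at 1 scaled FPKM. CRISP3 stands at 506 in VCaP, 368 in LAPC4, 18.8 in VCaP-CR and 9.59 in LAPC4-CR, and PI15 and CRISPLD1 stand high in VCaP-CR alone; CRISP2 has 0 counts in LNCaP-abl, drawn as an open triangle.

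The CRISP3 level was 26.9-fold lower in VCaP-CR than in VCaP (95% counting interval of the ratio 24.9 to 29.1), the difference on which the group was chosen. The choice named only the VCaP pair, but earlier results of these data were known when it was made. In the LAPC4 pair the level was 38.4-fold lower (35.1 to 42.0). In the LNCaP pair it was 2.70-fold lower (1.43 to 5.35), at levels where the count was 33 and 15. Changes were also taken on the scale log2(scaled FPKM + 1), which understates the change of low genes, as the resistant minus the sensitive library. On it the difference for CRISP3 was -0.70 (LNCaP pair), -4.68 (VCaP pair) and -5.12 (LAPC4 pair). The change in LAPC4 was the seventh lowest of 17336 tested genes.

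CRISP2, a sperm and testis protein, followed CRISP3 at far lower levels. VCaP gave 3.45 scaled FPKM (52 counts) and VCaP-CR 0.368 (9 counts). In the LAPC4 pair it stood at 1.64 (33 counts) and 0.273 (10 counts), and the LNCaP pair gave 4 and 0 counts. VCaP and LAPC4 were the high libraries, and the other 4 lay at or near the level of the markers of other cell types. The level was 9.37-fold lower in VCaP-CR (4.57 to 21.6) and 6.02-fold lower in LAPC4-CR (2.90 to 13.7). Across the 6 libraries the log2 levels of CRISP2 and CRISP3 had a Pearson correlation of 0.936, a description over points that come in 3 pairs of related lines.

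CRISP2 and CRISP3 are similar in sequence, so reads of one could be counted for the other. The longest run of bases that their GENCODE 29 transcripts share exactly was 43, against 15 for CRISP1 and CRISP3. The CRISP2 count was 0.459% of the CRISP3 count in VCaP, 0.301% in LAPC4, 1.32% in VCaP-CR, 1.92% in LAPC4-CR and 12.1% in LNCaP, while LNCaP-abl had 0 CRISP2 and 15 CRISP3 counts. The percentage was not the same in all libraries, and how the counting treated shared reads is not given in the sources used here. The part of shared reads in the CRISP2 counts was not tested.

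CRISP1, an epididymal protein and the last gene of the cluster, gave 3 to 9 counts per library and 0.124 to 0.480 scaled FPKM, the level of the markers of other cell types. PGK2, a testis gene between CRISP3 and CRISP1, had 0.832 scaled FPKM in VCaP against 1.06 in VCaP-CR, and 1.21 against 1.05 in the LAPC4 pair. Within 5 Mb of the cluster, a window set after the values had been seen, 26 other protein-coding genes were tested. Of these, 3 were at least 2-fold lower and 2 at least 2-fold higher in VCaP-CR, and 1 was lower and 2 were higher in LAPC4-CR. In LNCaP-abl 8 were higher and 1 was lower. Of all tested protein-coding genes, 2.18% were higher and 1.87% lower in VCaP-CR. The shares were 7.13% and 4.13% in LAPC4-CR, and 8.15% and 3.67% in LNCaP-abl. The median change of the 26 genes was 0.55 for LNCaP, 0.16 for VCaP and -0.01 for LAPC4.

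The other side of the VCaP-CR library was the high level of 2 neighbouring members on chromosome 8. PI15 (ENSG00000137558, chr8:75899327-75929819) was read at 39.7 scaled FPKM in VCaP-CR (4586 counts), and at 0.322 in VCaP, 0.328 in LNCaP, 0.182 in LNCaP-abl, 0.348 in LAPC4 and 0.277 in LAPC4-CR (15 to 48 counts). VCaP-CR alone was high, and the other 5 libraries stood near the level of the markers of other cell types. The VCaP-CR level was 123-fold that of VCaP (81.9 to 194), the value that put PI15 in the group.

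CRISPLD1 (ENSG00000121005, chr8:76059305-76109348), whose product is a secreted CAP protein with LCCL domains, lies 129 kb from PI15. It was read at 23.9 scaled FPKM in VCaP-CR (1754 counts) against 1.46 in VCaP (66 counts). In the LNCaP pair it stood at 0.563 and 0.230 (24 and 12 counts) and in the LAPC4 pair at 0.415 and 0.264 (25 and 29 counts). VCaP-CR was again the high library, with VCaP next. The VCaP-CR level was 16.4-fold that of VCaP (12.8 to 21.3), and among the tested genes the change ranked 11 from the top while that of PI15 ranked 2. The longest exact run shared by the transcripts of PI15 and CRISPLD1 was 20 bases.

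Genes beside this pair were also higher in VCaP-CR. RP11-758M4.1 had 0.621 scaled FPKM in VCaP (18 counts) and 6.52 in VCaP-CR (306 counts), a ratio of 10.5 (6.52 to 17.9), and it lies 1.22 kb from PI15, so transcripts that run on from one into the other cannot be told apart. GDAP1, which encodes a mitochondrial outer membrane protein and lies 336 kb from PI15, had 10.9 and 64.5 scaled FPKM, a ratio of 5.89 (5.34 to 6.51). In the other pairs its ratio was 1.04 for LNCaP (0.817 to 1.33) and 0.482 for LAPC4 (0.390 to 0.596). The other nearest protein-coding neighbours had smaller ratios: 1.87 for JPH1 (1.65 to 2.13), 1.54 for HNF4G (1.23 to 1.93), 1.55 for ZFHX4 (1.38 to 1.75) and 1.04 for PEX2 (0.940 to 1.15). On the log2(scaled FPKM + 1) scale the change was 0.82 for JPH1 and -0.02 for TMEM70 (-0.95 Mb from the centre of the locus). It was 0.78 for RDH10 (-1.62 Mb) and 0.86 for SLCO5A1 (-5.18 Mb). Between RDH10 and TMEM70 it was 0.15 for STAU2, 0.10 for UBE2W and -0.22 for TCEB1. SLCO5A1 was also higher in the LNCaP (0.81) and LAPC4 (1.11) pairs. RDH10 changed by -0.12 in the LNCaP pair and 0.49 in the LAPC4 pair. RP11-3N13.2, a noncoding gene between PI15 and CRISPLD1, had 1 count in VCaP and 0 in VCaP-CR, and RP11-758M4.4, which overlaps PI15, had 15 and 28. Within 5 Mb of PI15 and CRISPLD1, 23 other protein-coding genes were tested, and 3 of them were at least 2-fold higher in VCaP-CR and 1 lower. The 3 were GDAP1, RP11-758M4.1 and NCOA2, a coactivator of nuclear receptors near the edge of that window with 15.9 (VCaP) and 37.2 scaled FPKM (VCaP-CR). NCOA2 was also higher in the other resistant libraries, at 7.88 against 40.3 for the LNCaP pair and 6.98 against 13.4 for the LAPC4 pair. In LNCaP-abl 3 of the 23 were higher and 0 lower, and in LAPC4-CR 1 was higher and 2 were lower. Of all tested protein-coding genes, 2.18% were higher and 1.87% lower in VCaP-CR. The shares were 8.15% and 3.67% in LNCaP-abl, and 7.13% and 4.13% in LAPC4-CR. The median change of the 23 was 0.23 for LNCaP, 0.25 for VCaP and 0.08 for LAPC4, and the number of copies of this region in either line was not measured.

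**Figure D2:**
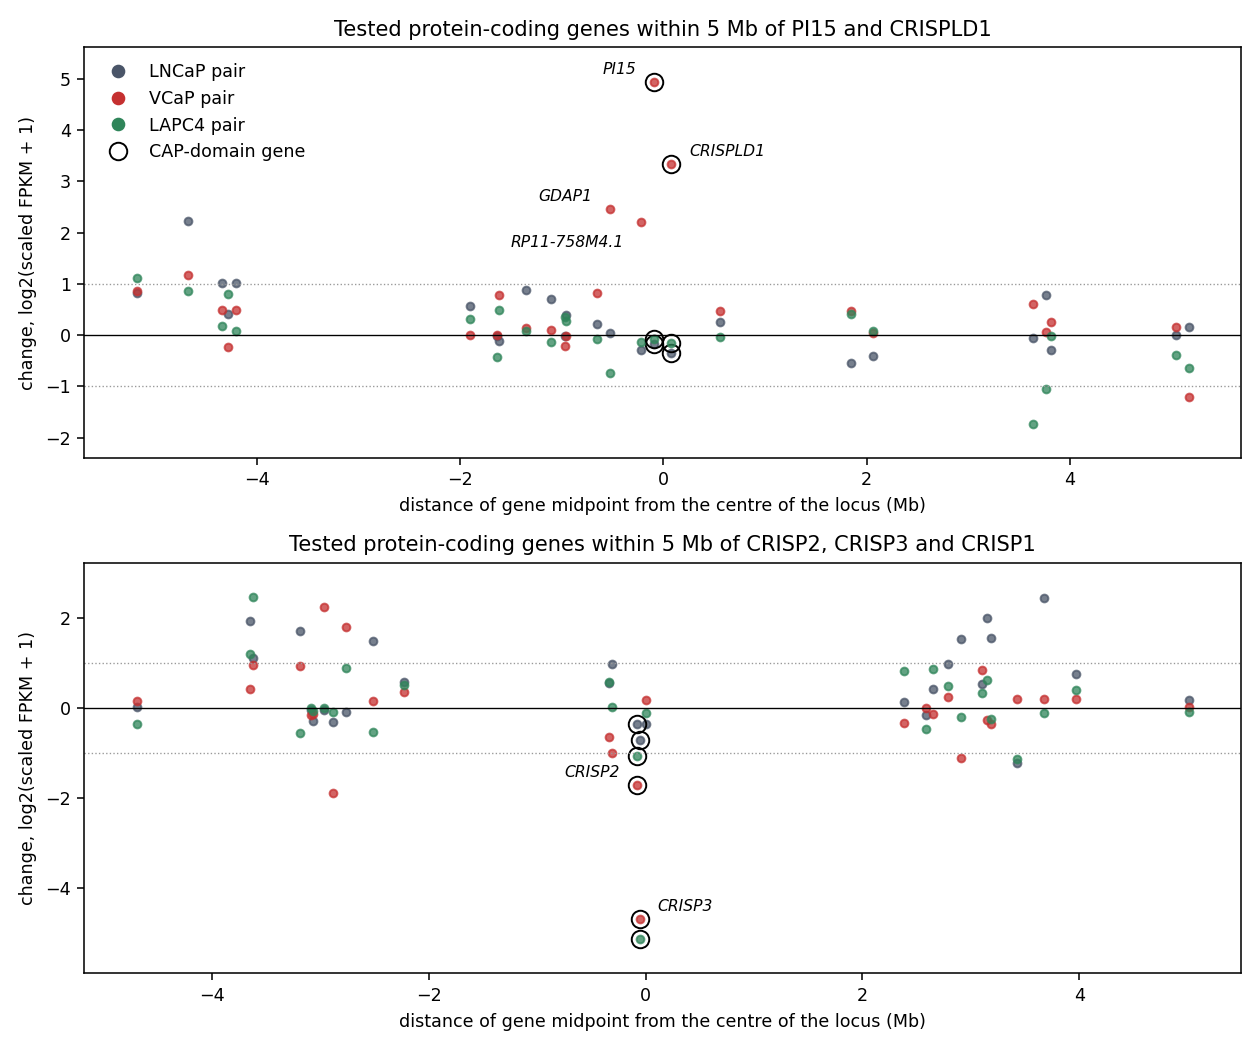
Change of each tested protein-coding gene (points, log2(scaled FPKM + 1), resistant minus sensitive) against the distance of its midpoint from the centre of PI15 and CRISPLD1 (upper panel) and of the CRISP genes (lower panel), for the 3 pairs by colour, with members ringed and dotted lines at a change of 1. In the VCaP pair PI15 (4.94), CRISPLD1 (3.34), GDAP1 (2.46) and RP11-758M4.1 (2.21) stand above the other genes of the upper panel; in the lower panel CRISP3 lies at -4.68 for VCaP and at -5.12 for LAPC4.

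GLIPR2 (ENSG00000122694, chr9:36126730-36153910), the Golgi-associated member, was lower in the resistant library of each pair. Its level was 3.92 scaled FPKM in LNCaP and 1.61 in LNCaP-abl (111 and 56 counts). It was 1.96 in VCaP and 1.11 in VCaP-CR (59 and 54 counts). In LAPC4 it was 3.77 and in LAPC4-CR 0.520 (151 and 38 counts). Each resistant library was below its own sensitive counterpart. Between pairs the groups were not clearly apart, since the counting intervals of VCaP (1.49 to 2.53) and LNCaP-abl (1.22 to 2.09) overlapped and their deposited FPKM, before scaling, was 1.69 and 1.70. The level was lower by 2.43-fold in the LNCaP pair (1.75 to 3.42), by 1.77-fold in the VCaP pair (1.20 to 2.61) and by 7.25-fold in the LAPC4 pair (5.05 to 10.6).

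CRISPLD2 (ENSG00000103196, chr16:83411038-83500615), a secreted protein known as a glucocorticoid-responsive gene in several tissues, did not move one way. It was read at 1.10 scaled FPKM in LNCaP and 1.86 in LNCaP-abl (48 and 99 counts), and at 0.757 in VCaP and 0.294 in VCaP-CR (35 and 22 counts). The LAPC4 pair gave 0.862 and 0.677 (53 and 76 counts). LNCaP-abl was the highest library and VCaP-CR the lowest. The level was 1.68-fold higher in LNCaP-abl (1.18 to 2.43) and 2.58-fold lower in VCaP-CR (1.47 to 4.62), and the interval in the LAPC4 pair, 1.27-fold lower, spanned 1 (0.879 to 1.83).

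GLIPR1 (ENSG00000139278, chr12:74160727-74183900) stayed between 0.505 and 0.850 scaled FPKM with 41 to 77 counts, and the interval of its ratio spanned 1 in each pair. Its span overlaps KRR1, at 4.66 to 11.3 scaled FPKM, and whether the counting used strand is not given in the sources used here, so its low level is uncertain. PI16 (ENSG00000164530, chr6:36663289-37040591) was read at 0.190 to 0.561 scaled FPKM with 9 to 32 counts. Its entry spans 377303 bases and overlaps 10 other entries, among them SRSF3 and CDKN1A, so its value is uncertain as well. In each library GLIPR1 lay above the median of the markers of other cell types.

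**Figure D3:**
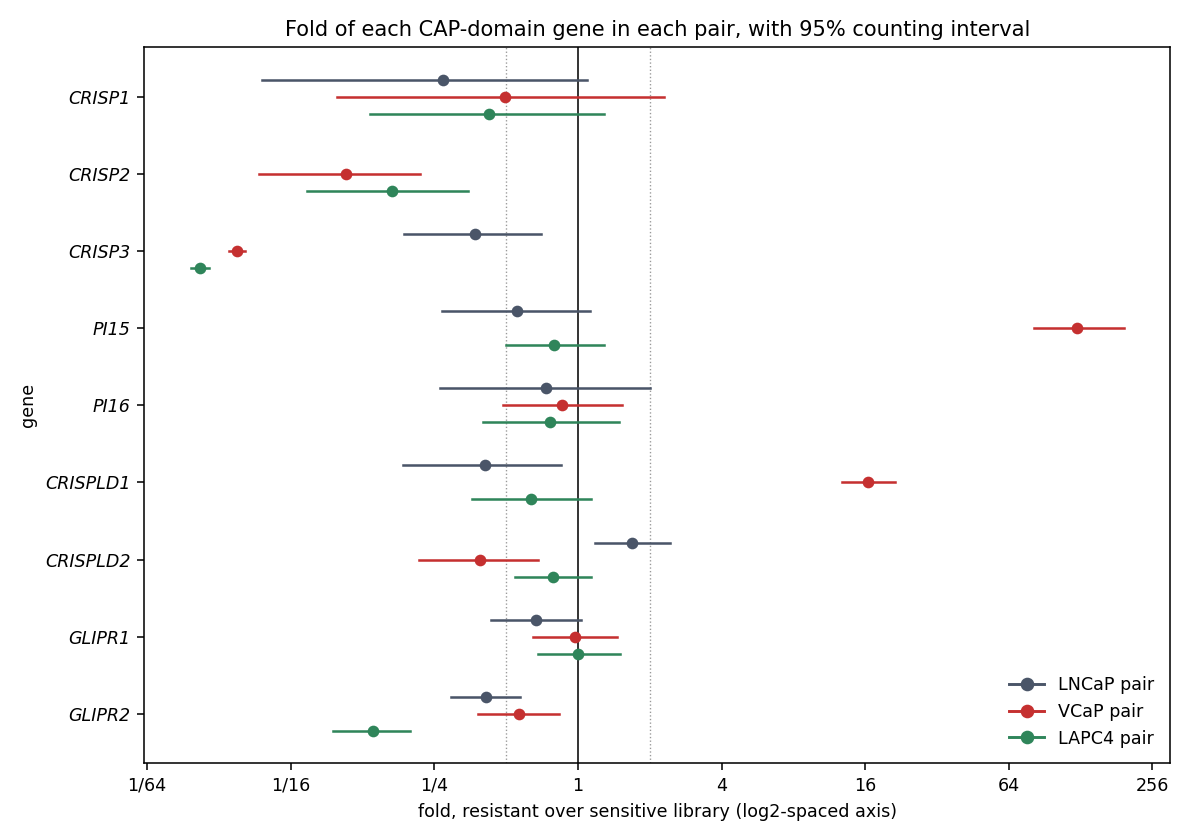
Ratio of the resistant to the sensitive library for each member in each pair (points, log2-spaced axis) with the exact 95% counting interval (bars) and dotted lines at 2-fold. The ratio of CRISP3 lies far below 1 in the VCaP and LAPC4 pairs, those of PI15 (123) and CRISPLD1 (16.4) far above 1 in the VCaP pair, and that of GLIPR2 below 1 in each pair; the LNCaP pair of CRISP2, with 4 and 0 counts, is not drawn.

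A change of at least 1 on the log2(scaled FPKM + 1) scale was called 2-fold. In the LNCaP pair 0 of the 9 members were called in either direction, where 6.66% of the 17336 tested genes were called higher and 7.71% lower. In the LAPC4 pair 3 members were called lower, CRISP3, GLIPR2 (-1.65) and CRISP2 (-1.05), and 0 higher, against 6.77% and 5.74% of tested genes. In the VCaP pair, which chose the group, PI15 and CRISPLD1 were called higher and CRISP3 and CRISP2 lower, beside 2.55% and 2.28% of tested genes. The median change of the 9 members was -0.35 for LNCaP, -0.15 for VCaP and -0.16 for LAPC4, against -0.01, -0.01 and 0.00 for all tested genes. The sets are unlike, since 4 of the 9 members did not pass the filter. The member medians are the values of CRISPLD1 (LNCaP and LAPC4 pairs) and CRISP1 (VCaP pair), at 4 to 29 counts, so they describe low genes. Without any threshold, 5 of the 9 members were lower in all 3 pairs: CRISP1, CRISP2, CRISP3, PI16 and GLIPR2. Of the tested genes 17.0% were, but CRISP1 and PI16 are not among those tested. Both are close to the level of the markers of other cell types. The median of those markers was itself lower in each resistant library: 0.377 and 0.218 (LNCaP pair), 0.210 and 0.194 (VCaP pair), 0.291 and 0.239 (LAPC4 pair). CRISP3 was chosen for its fall in the VCaP pair, and CRISP2 had 4 and 0 counts in the LNCaP pair.

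**Figure D4:**
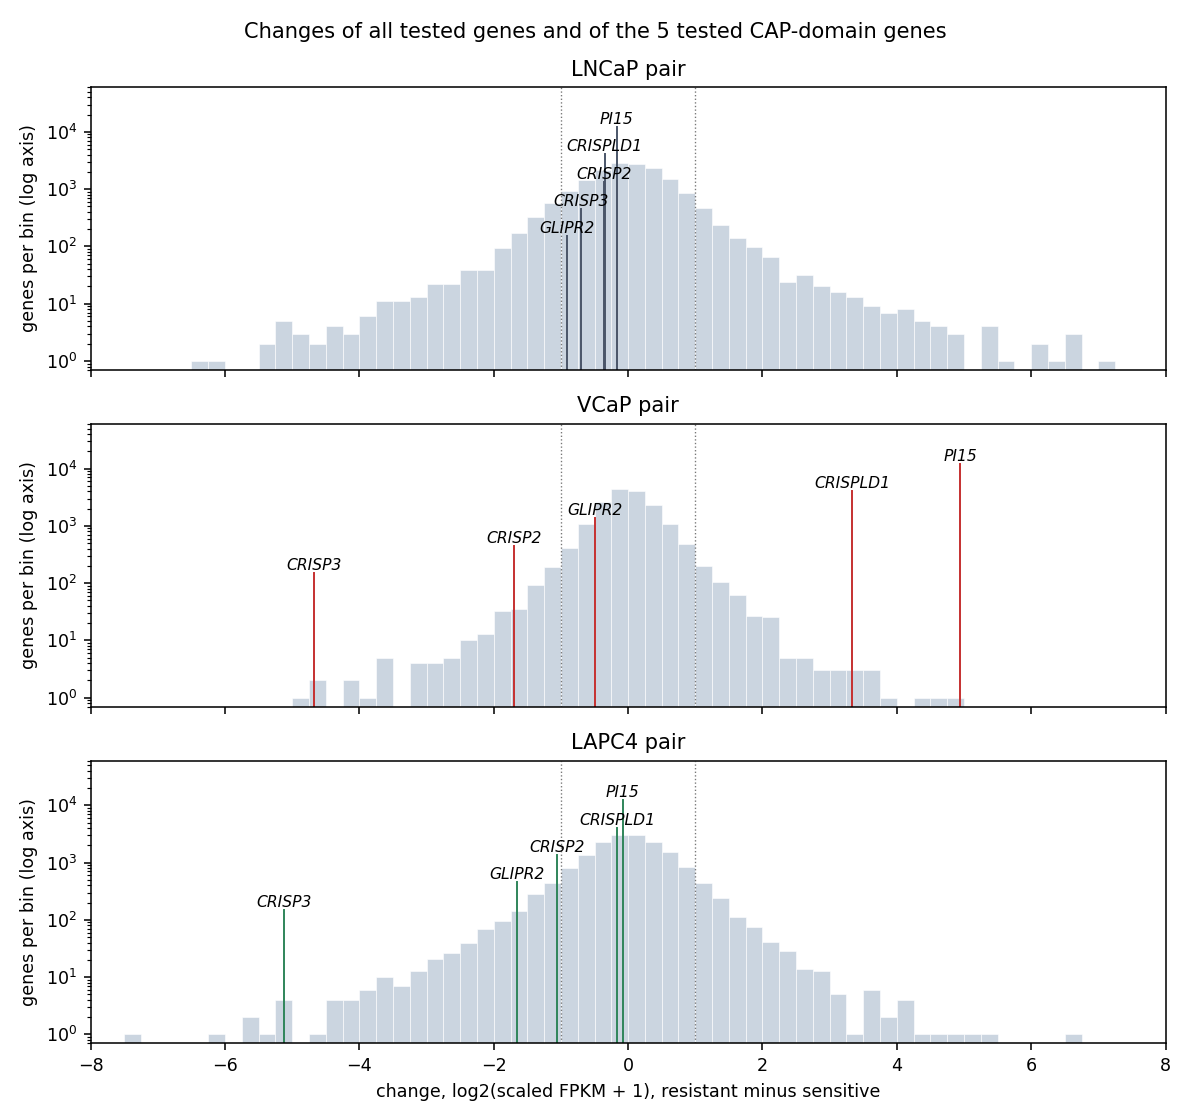
Number of tested genes (bars, log axis) by change in log2(scaled FPKM + 1), resistant minus sensitive, in each pair, with the 5 tested members as labelled lines and dotted lines at a change of 1 in either direction. CRISP3 lies in the lower tail of the VCaP (-4.68) and LAPC4 (-5.12) pairs, and PI15 (4.94) and CRISPLD1 (3.34) in the upper tail of the VCaP pair but near 0 in the others.

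Across the 3 pairs the states were compared with edgeR's quasi-likelihood test, with the line as a block and Benjamini-Hochberg adjustment over all 17336 tested genes. It called 0.0% of the genes at an adjusted p under 5%, so none of the members passed; 860 genes were higher and 691 lower at an unadjusted p under 0.05, and DESeq2 called 94 higher and 64 lower. The fitted log2 change was -4.12 for CRISP3 (SE 0.78, adjusted p = 0.526), -2.99 for CRISP2 (SE 0.51, adjusted p = 0.526) and -1.64 for GLIPR2 (SE 0.48, adjusted p = 0.526). Each of these 3 was lower in 3 of 3 pairs. For CRISP2 the LNCaP pair had only 4 and 0 counts, and the counting interval of its ratio (0 to 1.23) spanned 1. For PI15 it was 1.44 (SE 1.66, adjusted p = 0.810) and for CRISPLD1 0.72 (SE 1.15, adjusted p = 0.870), each higher in 1 of 3 pairs.

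The call of CRISP3 and CRISP2 depended on the settings of the fit. CRISP3 did not pass in edgeR at a mean of at least 5 (adjusted p = 0.418) or among protein-coding genes only (adjusted p = 0.629). It did not pass in limma either (adjusted p = 0.486). With no filter on low genes, edgeR called 0.134% of 43171 genes lower, among them CRISP3 (adjusted p = 0.000196) and CRISP2 (adjusted p = 0.00385). GLIPR2 did not pass there (adjusted p = 0.172). DESeq2 called 0.481% of 13302 genes lower, among them CRISP3 (log2 change -4.02, adjusted p = 3.62e-07). Both of these fits include the VCaP pair that chose CRISP3, so their values for CRISP3 are descriptions. Without the VCaP pair, which chose CRISP3, the filtered fit gave -3.61 for CRISP3 (adjusted p = 0.421), -2.83 for CRISP2 (adjusted p = 0.446) and -2.06 for GLIPR2 (adjusted p = 0.464). With neither the filter nor the VCaP pair, an alternative added after the data were seen, CRISP3 (-3.49, adjusted p = 0.00149) and CRISP2 (-2.66, adjusted p = 0.0405) passed. Without the LNCaP pair, CRISP3 (-5.00, adjusted p = 0.0308) was the 1 gene of 17336 called lower, but that fit rests partly on the VCaP pair that chose it, so it is a description. For PI15 and CRISPLD1 the sign rested on VCaP-CR: without the VCaP pair their fitted changes were -0.57 and -0.95.

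The lines themselves were compared with an F-test of edgeR over the 3 lines with state as a term, which called 12.1% of tested genes. The level of CRISP3 was higher in the VCaP and LAPC4 pairs than in the LNCaP pair by 6.62 and 5.99 on the log2 scale (adjusted p = 0.0213), though a strong fall in the VCaP pair requires a high level there, so its choice was not independent of this result. CRISP2 was higher by 3.74 and 2.94 (adjusted p = 0.0418). VCaP and LAPC4, the libraries that brought CRISP2 past the filter, are also those in which it was high, so this call is a description. GLIPR2 (adjusted p = 0.542) did not pass. PI15 (adjusted p = 0.183) and CRISPLD1 (adjusted p = 0.0769) did not pass either, and their values here restate the VCaP-CR library that brought them past the filter. With no filter PI15 (adjusted p = 0.00283) and CRISPLD1 (adjusted p = 0.00011) passed. CRISPLD1 also passed with no term for state (adjusted p = 0.0311). These fits hold VCaP-CR too, so they are descriptions of that library. With no term for state the adjusted p was 0.101 for CRISP3 and 0.264 for CRISP2, and CRISP2 also lost its call without LNCaP (0.0850), without VCaP (0.140) or without VCaP-CR (0.0876). A fit without 1 library leaves its line with a lone sample, which is assumed to vary like the other lines. Without VCaP-CR the adjusted p was 0.344 for CRISPLD1 and 0.912 for PI15. CRISPLD1 passed in the fits without LNCaP, VCaP, LAPC4 or LAPC4-CR (0.00103 to 0.0242) and PI15 in those without VCaP (0.00132) or LAPC4 (0.00589), all of which hold VCaP-CR, so these calls are descriptions of that library.

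Genes around the members were read from lists. Of the 6 related CAP genes, among them GLIPR1L1 and GLIPR1L2, 0 passed the filter, and their summed level was 0.991 to 2.21 scaled FPKM per library. Of 12 secreted prostate and CRISP3-binding proteins, 4 passed the filter and 0 the edgeR test of state. MSMB, a seminal protein that binds CRISP3, was at 0.166 to 1.31 scaled FPKM, and A1BG, its partner in plasma, at 0.283 to 2.09. ACPP, prostatic acid phosphatase, had 494 scaled FPKM in VCaP, 179 in VCaP-CR and 3.36 in LAPC4, where CRISP3 was high. PIP, another seminal protein, went from 22.3 in LAPC4 to 3.74 in LAPC4-CR.

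Of the 6 regulators read beside the members, 6 passed the filter and 0 the edgeR test of state. ERG, the transcription factor of the fusion, stood at 16.6 scaled FPKM in VCaP. Its level in VCaP-CR was 5.42, and the other 4 libraries had 0.191 or less. LAPC4, the line with the second-highest CRISP3 level, had ERG at 0.160. HOXB13, a prostate homeobox factor, stood at 30.5 in LAPC4, 1.64 in LAPC4-CR, 42.8 in VCaP and 35.2 in VCaP-CR.

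Markers of cells that also make CAP proteins were read for the same libraries. Neutrophils store CRISP3, and the summed level of 9 neutrophil and myeloid markers was 1.79 to 3.48 scaled FPKM in the 6 libraries, with 0 of the 9 past the filter. Fibroblasts express PI16 and CRISPLD2, and the sum of 8 stromal markers was 51.9 in VCaP-CR against 2.45 to 5.71 elsewhere. LUM, a secreted proteoglycan, made up 49.8 of it, DCN was at 0.674 and the other 6 at 0.390 or less. In that library, where PI15 and CRISPLD1 were high, the fibroblast collagens COL1A1 (0.254), COL1A2 (0.287) and COL3A1 (0.127) were near the median of the markers of other cell types. The sum of 10 testis and epididymis markers was 1.41 to 8.85, that of 6 lymphocyte markers 1.14 to 2.67 and that of 3 endothelial markers 0.601 to 2.25, with PECAM1 not matched.

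The genes whose pattern was most like that of CRISP3 were sought among 2095 protein-coding tested genes whose log2 level ranged by at least 2 over the 6 libraries. By Pearson correlation of log2(scaled FPKM + 1) over the 6 libraries they were C19orf76 (0.997), LPL (0.974), FZD4 (0.957), P2RY1 (0.946) and B3GNT5 (0.940). LPL, the lipoprotein lipase that frees fatty acids from circulating triglycerides, stood at 15.1 (VCaP) and 12.8 scaled FPKM (LAPC4), against 4.60 and 0.829 in their resistant counterparts and 0.365 and 0.198 in LNCaP and LNCaP-abl. FZD4, a Wnt receptor, was at 11.0 in VCaP and 6.41 in LAPC4, and between 1.17 and 3.47 in the other 4 libraries. For PI15 they were GPR149 (0.998), FAM133A (0.994), EPYC (0.993), its neighbour RP11-758M4.1 (0.991) and DSG1 (0.991), and CRISPLD1 ranked 7 (0.980). DSG1, a desmosomal cadherin of stratified epithelia, was at 15.3 scaled FPKM in VCaP-CR and at 0.853 or less in the other 5. The likeness to PI15 rests on VCaP-CR, the 1 library in which these genes are high. By Spearman correlation 1 of the 5 genes for CRISP3 and 0 of the 5 for PI15 remained at or above the fifth-highest value.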

How the data were processed

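RNA was measured once in each of 6 cell lines, and total counts ran from 8661337 to 22433655. Per the labels' protocols, RNeasy columns gave the total RNA and the SOLiD Total RNA-Seq kit the libraries. The submitters' processing notes name HTSeq and hg18, without roles; for the aligner, strand and shared reads, the handling is not given in the sources used here. The deposited counts are whole numbers per gene. Deposited FPKM values could be rebuilt to within 1% in each of the 51698 entries from the count, the deposited gene length and the summed counts. Deposited starts count from 0, so 1 was added.

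Small-RNA entries (6925) were left out and entries sharing a symbol summed (145 of 44628 symbols). A factor per library, from the median ratio of 12472 genes to their geometric means, scaled the FPKM. Genes averaging 1 scaled FPKM or more (17336, of which 11335 protein-coding) were tested on counts with edgeR 4.0.16 in R 4.3.3 (TMM, line as block, checked on simulated counts), and DESeq2 1.42.0 and limma 3.58.1 were alternatives. Changes within a pair use a pseudocount of 1 and have no test; ratios carry exact conditional binomial (Clopper-Pearson) 95% intervals.

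Groups come from the labels and pairs from the line names. Deviations from group means correlated at 0.45, 0.71 and 0.57 within the LNCaP, VCaP and LAPC4 pairs, and at -0.45 to -0.06 between lines. The members and gene lists were chosen with earlier results of these data known. The named genes are all members, the listed genes, the 3 nearest protein-coding neighbours on each side, and the 5 genes most like CRISP3 and PI15. NCOA2, TMEM70, RDH10, SLCO5A1, STAU2, UBE2W, TCEB1 and the noncoding neighbours were chosen after their values were seen. Some listed items are not reported here. Other processing settings tried were the scaling, the filter, the pseudocount, the line block and leaving out libraries.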

Additional observations from a re-analysis of the deposited data

Results flagged for a closer look

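CRISPLD1 and CRISPLD2 moved in opposite directions in the LNCaP and VCaP pairs, with counting intervals of the ratio on opposite sides of 1. For CRISPLD1 the log2 ratio of the LNCaP pair less that of the VCaP pair was -5.33, with a lower level in LNCaP-abl than in LNCaP and a higher one in VCaP-CR than in VCaP. For CRISPLD2 the same difference was 2.12, with a higher level in LNCaP-abl and a lower one in VCaP-CR. With 1 library per line and state, the difference between the pairs was not tested. CRISPLD1 passed the filter only through VCaP-CR, the library that sets most of its difference. In LNCaP and LNCaP-abl it stood at 0.563 and 0.230 scaled FPKM (24 and 12 counts), beside medians of 0.377 and 0.218 for the markers of other cell types. CRISPLD2 did not pass the filter and had 22 to 99 counts in these libraries.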

How the results depend on the processing

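Calls of the state effect by edgeR (0 higher, 0 lower) became 95 and 58 with no filter and 94 and 64 with DESeq2; leaving out a pair gave 0 to 21 higher and 1 to 11 lower. No replicate block gave 0 and 0 calls, and it changed no other call of the members, though PI15 (5.34) and CRISPLD1 (3.35) had larger fitted changes than with it. Leaving out a pair moved the fitted change of PI15 between -0.566 and 3.48 and that of CRISPLD1 between -0.950 and 1.97. Without the VCaP pair the fitted change of PI15 turned to -0.566 and that of CRISPLD1 to -0.950, and with no filter as well to -0.435 and -0.819. The line effect calls were 3958 by DESeq2's likelihood ratio test, 4920 with no filter and 1102 at a mean of at least 5, and leaving out 1 library gave 825 to 3355. Members called 2-fold lower in the LNCaP pair became 3 with a pseudocount of 0.25 and 1 with scaling to protein-coding counts; with a pseudocount of 5, 1 was left for VCaP and 1 for LAPC4. The cause was not tested. Members under about 10 counts a library (CRISP1, and CRISP2 in the resistant lines) are limited by depth.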
